A study of Mus musculus with 5 samples.

Results

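The cytosolic ribosomal protein genes were read in hematopoietic stem cells (HSCs) of Atxn1L null and WT mice. The 50 genes were all those whose symbol starts with Rpl or Rps and a digit, or is Rplp0, Rplp1, Rplp2 or Rpsa, that had 1 or more probe sets assigned to no other gene, without the Rps6k kinases and pseudogenes named as such. They held 106 of the 45037 probe sets tested and 50 of the 18193 genes. Of the 50 genes, 22 encode core proteins of the large subunit, 21 core proteins of the small subunit and 6 are paralogs of core genes. The rule on symbols also took Rps19bp1, which encodes a binding partner of Rps19 and no ribosomal protein. It also took Rps4l, a paralog that RefSeq lists as a transcribed pseudogene. The 50 genes lie on 17 chromosomes, and 44 of them had a mean of at least 5 over the 5 arrays. All 50 were kept.

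RNA came from HSCs of 2 Atxn1L null and 3 WT pools of the C57Bl/6 strain, from mice of 6 to 8 weeks, and each pool was hybridised to 1 Affymetrix mouse expression array. The null mice carry a knock-out allele of Atxn1L, an ataxin-1 homolog that acts with the repressor Capicua. In sorted pools of this kind, fewer cells of a type and less RNA per cell cannot be told apart. The cells lacked lineage markers, carried c-Kit, Sca-1 and CD150, and fell in the side population, which pumps out Hoechst dye. The RNA was amplified before labeling, how many mice made up a pool is not stated, and p-values measure only the spread between these pools.

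The medians over all probe sets were 3.05 and 3.06 in null and 3.03 to 3.07 in WT arrays on the log2 scale. The deposited values had been normalized across arrays and these medians lie near the floor, so they cannot show that the arrays were comparable. The probe set of Atxn1l with the highest mean read 3.53 in null and 6.15 in WT HSCs, and another read 3.44 in null and 6.19 in WT HSCs. Whether these probe sets lie in the deleted part is not known from the files. Of 7 HSC markers, 5 were measured and 4 had a mean of at least 5, with summed values of 43.7 to 43.9 in null and 44.5 to 44.8 in WT arrays. Slamf1, which encodes the sort marker CD150, read low, at 3.89 in null and 3.92 in WT HSCs. All 8 measured markers of erythroid, lymphoid, myeloid, endothelial and stromal cells had a mean below 5. Their summed values were 19.51 to 19.56 in null and 19.43 to 19.66 in WT arrays. The 3' value of the Gapdh control exceeded its 5' value by 7.33 and 7.21 in null arrays, against 5.89, 6.02 and 5.92 in WT arrays. For Actb the excess was 7.43 and 7.28 in null arrays, against 6.71, 6.60 and 6.40 in WT arrays. The genotypes did not overlap in either measure of RNA quality, nor in the sums of the HSC markers, and the part of these differences in the values that follow was not tested.

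Ribosomal proteins join the ribosomal RNAs to form the small subunit, which decodes the mRNA, and the large subunit, which forms the peptide bond. Their mRNAs are abundant in most cells and share a pyrimidine tract at the 5' end, through which mTOR signaling controls their translation. HSCs make protein slowly compared with other blood cells, and loss of 1 copy of certain ribosomal protein genes causes Diamond-Blackfan anemia in humans.

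The starts of 7 member genes with values described below are shown, 5 with and 2 without a pyrimidine run, a feature that the choice by symbol did not use. Windows of 30 bases around the annotated start, from RefSeq on GRCm38.p6, are given 5' to 3' with 15 bases before the start. Capitals mark the run of pyrimidines from a C at the start. Rps6, Rpl14, Rplp2, Rps10 and Rpl38 have such a run, and Rps25 and Rps27l, the last with a pair of annotated starts, have none at the annotated position.
Rps6, chr4:86857353-86857382, minus strand: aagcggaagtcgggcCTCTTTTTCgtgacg
Rpl14, chr9:120571502-120571531, plus strand: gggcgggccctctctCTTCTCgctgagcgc
Rplp2, chr7:141447636-141447665, plus strand: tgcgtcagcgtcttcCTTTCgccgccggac
Rps10, chr17:27635230-27635259, minus strand: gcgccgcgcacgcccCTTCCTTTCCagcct
Rpl38, chr11:114668565-114668594, plus strand: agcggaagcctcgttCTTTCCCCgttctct
Rps25, chr9:44407699-44407728, plus strand: tttttccgacatcttagcgaggctgctgtg
Rps27l, chr9:66946071-66946100, plus strand: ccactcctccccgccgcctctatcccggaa
Rps27l, chr9:66946398-66946427, plus strand: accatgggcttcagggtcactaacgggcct

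Of the 50 genes, 44 had a window in the RefSeq table, and 8 of them (18.2%) had a C at an annotated start followed by at least 4 pyrimidines. The share over all 27025 genes with a window was 3.01%. The 8 genes were Rpl14, Rpl35, Rpl38, Rplp2, Rps10, Rps18, Rps27 and Rps6. The run was 9 bases long in Rps6, 6 in Rpl14, 5 in Rplp2, 10 in Rps10 and 8 in Rpl38. An annotated start a base away from the true one removes a match, so the count says only what these letters hold. In the windows from 250 bases before to 50 after the start, CCGGAAG, a form of the Ets family site, was present on either strand in 40.4% of 52 member windows and in 8.86% of all 32851 windows. The shorter CTTCC, which overlaps that site on the opposite strand, was in 92.3% of member and 71.4% of all windows. GGGCGG, the Sp1 site, was in 53.8% of member and 35.7% of all windows, CACGTG, the E-box bound by Myc, in 9.62% of member and 7.15% of all windows, and AAGATGG, a YY1 site, in 15.4% of member and 6.34% of all windows. A match is a description of the sequence and no evidence of binding.

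No member was called between the genotypes. Each gene was represented by the probe set of highest mean, and a call needed a 1.5-fold difference (0.585 on the log2 scale) together with a limma p no higher than 0.05. Of the 50 genes, 0 were called higher in null HSCs, against 1.57% of all genes, and 0 were called lower, against 1.43%. Without the minimum fold, 4 members had a p of at most 0.05 (Rpl14, Rps27l and Rplp2 with higher and Rpl8 with lower values in null HSCs), against 7.44% of all genes. No member and no gene in the whole table reached an adjusted p under 0.05, with a lowest adjusted p among members of 0.561 for Rpl8. No exact test of 3 arrays against 2 can go below a p of 0.1. The count of genes called higher became 1 without the second null array (Rps4l) and 2 without the second WT array (Rps25 and Rps27l).

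The differences, null minus WT, had a median of 0.086 on the log2 scale, and 36 of the 50 were positive. Over all genes the median was -0.002 and 45.4% were positive. Among the 380 genes with a mean of at least 12, where 33 of the members lie, the median was -0.003 and 49.5% were positive. The large subunit genes had a median of 0.123 with 17 of 22 positive, the small subunit genes 0.017 with 14 of 21 positive, and the paralogs 0.075 with 5 of 6 positive. The members ranged from -0.42 for Rps19bp1 to 0.95 for Rps25. The genotypes did not overlap in 10 members, against 17.5% of all genes. Both null values lay above all WT values in 7 (Rps25, Rps27l, Rpl14, Rps24, Rpl27a, Rplp2 and Rps10), which is 14% of the members against 9.14% of all genes. Both lay below in 3 (Rps19bp1, Rpl8 and Rps9), or 6.0%, against 8.35%. Among the 32 core members with a mean of at least 12, both null values lay above in 3 (9.38%) and below in 2 (6.25%), against 14.5% and 14.7% of all genes with such a mean. None of these shares was tested.

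**Figure D1:**
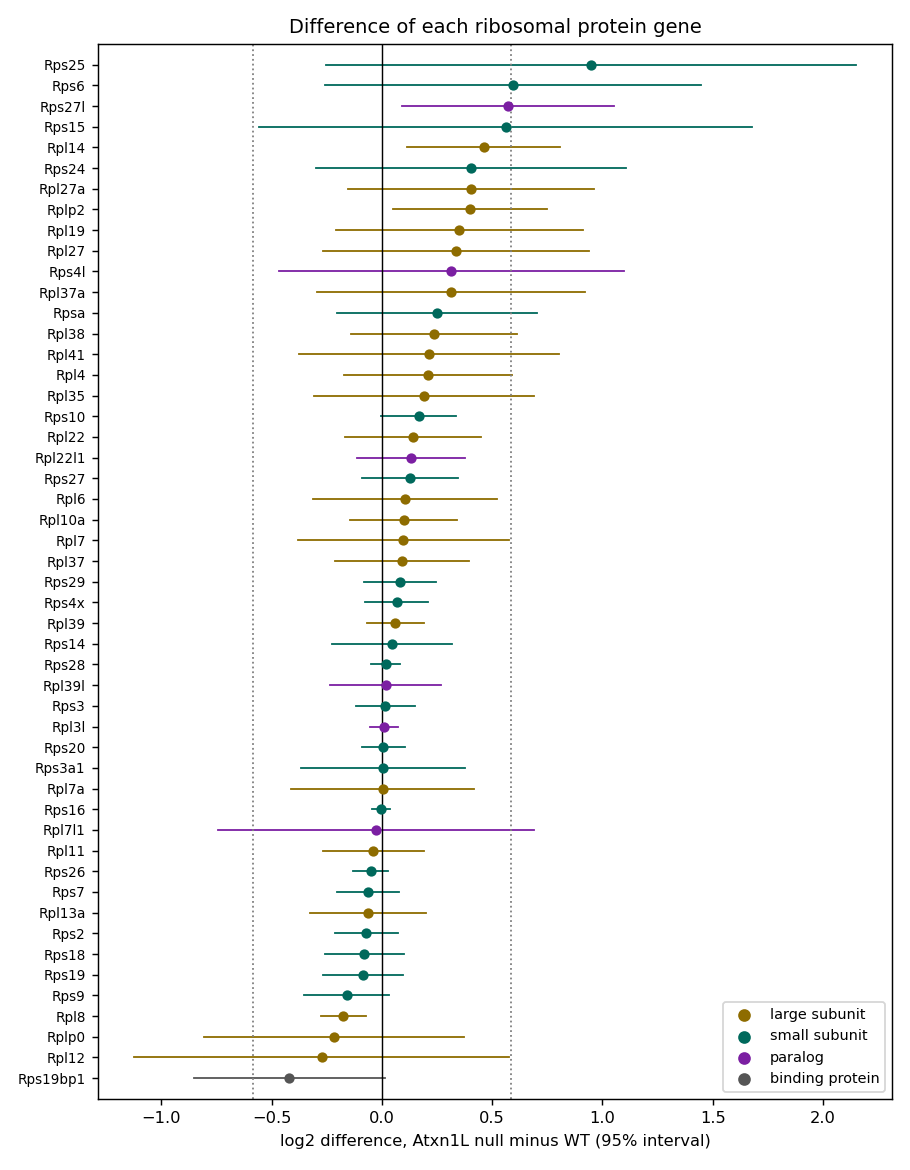
Log2 difference, Atxn1L null minus WT, of the 50 genes (horizontal axis), a row per gene in order of the difference, with the 95% interval of the limma fit (n = 2 null and 3 WT arrays). Dotted lines mark a 1.5-fold difference, and 36 points lie right of 0.

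The median difference depended on which arrays were kept. For each array, the value of a gene minus its mean over the 5 arrays was taken, and the median over the 50 genes was 0.151 and -0.013 in the null arrays, against -0.101, 0.021 and -0.011 in the WT arrays. The same medians over all genes lay between -0.016 and 0.012. The first null array held the highest value of 31 of the 50 genes, and the first WT array the lowest value of 28. The medians of the other arrays lay close together, from -0.013 to 0.021. In the first null array the median was 0.210 for the large and 0.102 for the small subunit genes. In the first WT array it was -0.168 for the large and -0.061 for the small subunit genes. The median difference was 0.007 without the first null array, 0.183 without the second null array and 0.042 without the first WT array. Without both first arrays, an alternative chosen after seeing the data, it was -0.016.

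**Figure D2:**
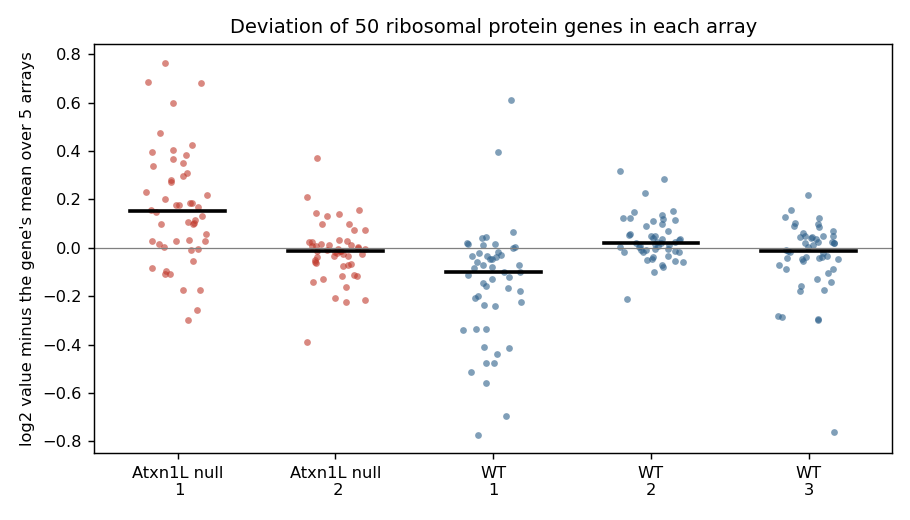
Value of each gene minus its own mean over the 5 arrays, in log2 units (vertical axis), for the 2 Atxn1L null and 3 WT arrays. Each point is 1 of 50 genes and bars are medians, at 0.151 and -0.013 in the null and -0.101, 0.021 and -0.011 in the WT arrays.

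Among the small subunit genes, the largest difference was that of Rps25, whose protein is needed for translation from certain internal ribosome entry sites. It read 10.19 and 9.80 in null arrays, against 8.73, 9.74 and 8.66 in WT arrays. The second WT array lay within 0.1 of the lower null array, and the difference of 0.95 ± 0.42 (SE) had an adjusted p of 1 in limma. It passed the criterion without the second WT array, at 1.30, and when dim probe sets were left out of the fit. Rps6, the substrate of the S6 kinases, read 10.54 and 9.90 in null arrays, against 9.35, 9.96 and 9.57 in WT arrays. Here the second WT array read higher than the second null array, and the difference was 0.59 ± 0.30 (SE, adjusted p = 1 in limma). Rps15, chosen after its values were seen, read 11.94 and 11.24 in null arrays, against 10.49, 11.31 and 11.31 in WT arrays. Its difference of 0.56 ± 0.39 (SE) came from the first null and the first WT array, while the others lay close together.

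Rps24, needed to process the RNA of the small subunit, read 12.97 and 12.68 in null arrays, against 12.03, 12.62 and 12.62 in WT arrays. The groups did not overlap, but the second null array lay just above a pair of WT arrays at 12.62. The difference was 0.41 ± 0.25 (SE). Rps10, which lies near the mRNA entry of the ribosome, read 15.10 and 14.95 in null arrays, against 14.84, 14.90 and 14.82 in WT arrays. The difference was small, at 0.17 ± 0.06 (SE, limma adjusted p = 0.908). Rps9 ran the other way, with 14.22 and 14.38 in null arrays, against 14.41, 14.53 and 14.44 in WT arrays, a difference of -0.16 ± 0.07 (SE).

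Of the large subunit genes, Rpl14 read 11.65 and 11.42 in null arrays, against 10.92, 11.19 and 11.12 in WT arrays. The groups were separate, and the difference of 0.46 ± 0.12 (SE) had a limma p of 0.0217 and an adjusted p of 0.696. Rpl27a, whose mutation causes the sooty foot ataxia mouse, read 10.57 and 10.38 in null arrays, against 9.76, 10.18 and 10.28 in WT arrays. Its groups were also separate, with a difference of 0.40 ± 0.20 (SE). Rpl8, which lies near the site of peptide bond formation, had the lowest p of the members. It read 13.75 and 13.73 in null arrays, against 13.91, 13.87 and 13.97 in WT arrays. The arrays of each genotype lay close together, and the difference of -0.17 ± 0.04 (SE) was a fold of 1.13. The limma p was 0.00947, with an adjusted p of 0.561. With a variance trend and robust estimation the limma p was 0.125, and it was 0.211 when dim probe sets were left out of the fit.

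The acidic stalk of the large subunit recruits the translation factors, and 2 of its 3 genes were measured. Rplp2 read 14.52 and 14.30 in null arrays, against 13.97, 14.18 and 13.89 in WT arrays. The groups did not overlap, and the difference was 0.40 ± 0.12 (SE), with a limma p of 0.0335 and an adjusted p of 0.797. Rplp0, the base of the stalk, read 14.34 and 13.82 in null arrays, against 14.21, 14.49 and 14.19 in WT arrays. Its null arrays lay on either side of a pair of WT arrays at 14.21 and 14.19, and the difference was -0.22 ± 0.21 (SE), which became 0.05 without the second null array and -0.48 without the first. The difference between the differences of the pair was not tested.

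**Figure D3:**
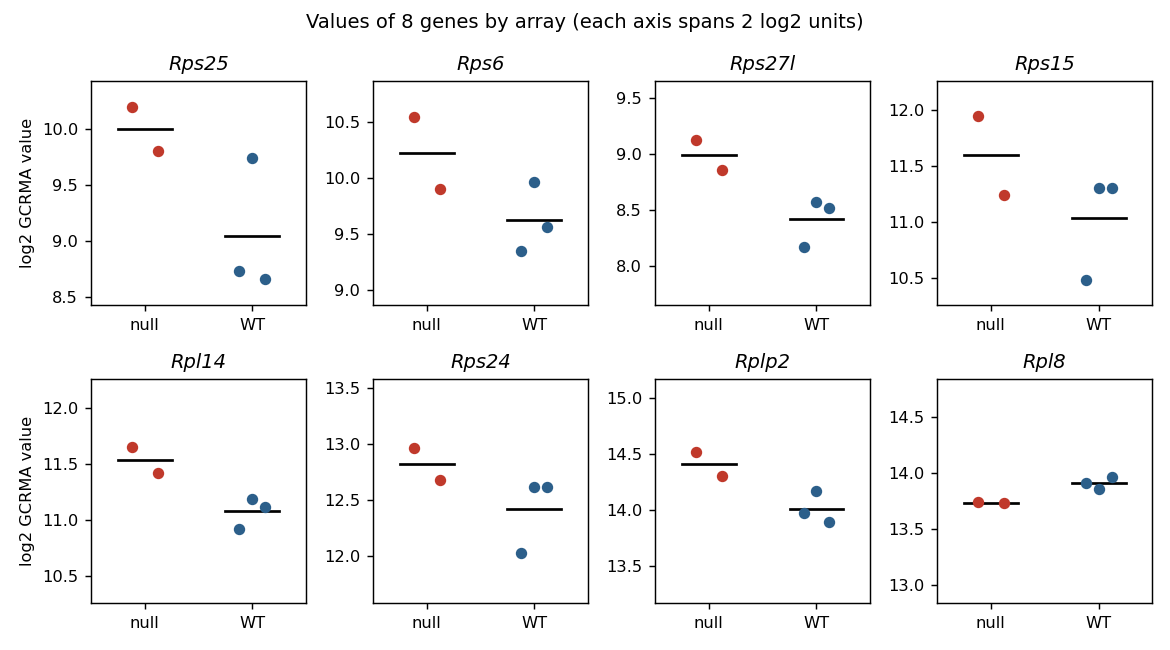
Log2 GCRMA values (vertical axes, 2 log2 units each) of 8 genes in the Atxn1L null arrays (red, left) and the WT arrays (blue, right), with bars at the group means. The groups overlap for Rps6 and Rps15, the null arrays lie above for Rps25, Rps27l, Rpl14, Rps24 and Rplp2, and they lie below for Rpl8.

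Rps27l, a p53 target whose protein binds Mdm2, had a limma p no higher than 0.05 on each of its 3 probe sets. The first read 9.12 and 8.86 in null arrays, against 8.17, 8.57 and 8.52 in WT arrays, a difference of 0.57 ± 0.17 (SE), or 1.49-fold, with a limma p of 0.0304 and an adjusted p of 0.777. The others read 0.68 and 0.53 higher in null arrays by their means, and the groups did not overlap in any of the 3. The one at 0.68 passed the criterion (1.60-fold, with a limma p of 0.0341), and that call held in 1 of the 5 fits that left out an array, without the third WT array. The 3 probe sets are assigned to the same gene and read the same RNA, so they are no independent measurements. The first and the one at 0.53 are of a kind that can hybridise to related transcripts. The core gene Rps27 read 3.32 and 3.10 in null arrays, against 3.10, 3.10 and 3.05 in WT arrays, near the floor of the scale.

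The genotypes overlapped in each of the other paralogs. Rpl22l1, whose mRNA is held down by Rpl22 in the mouse, read 13.06 and 12.93 in null arrays, against 12.75, 12.97 and 12.87 in WT arrays. Rpl7l1 read 9.22 and 9.41 in null arrays, against 8.92, 9.56 and 9.55 in WT arrays. Their differences were 0.13 ± 0.09 and -0.03 ± 0.25 (SE), both with overlapping groups. Rpl3l, a muscle form, and Rpl39l, a testis form, read at most 3.16 in every array, near the floor, and carry little information on change. Rps4l read 4.58 and 3.75 in null arrays, against 3.88, 3.88 and 3.80 in WT arrays, so that its difference of 0.32 lay in the first null array alone.

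Several ribosomal proteins bind Mdm2 and hold its action on p53, and 5 of 7 such genes were measured. Besides Rps27l these were Rpl11, Rps3, Rps7 and Rps14, with differences of -0.04, 0.02, -0.06 and 0.05. The 95% intervals of these 4 lay between -0.27 and 0.32, within the 1.5-fold limit in both directions on the probe set with the highest mean. A dimmer probe set of Rps3 averaged 10.68 in null and 10.32 in WT HSCs. Its difference of 0.36 had an interval of -0.33 to 1.05, which goes past the limit. Of 20 genes mutated in Diamond-Blackfan anemia or lost in the 5q- syndrome in humans, 12 were measured, with a median difference of 0.064 and 0 calls. The largest differences were those of Rps24, Rpl27 (0.34 ± 0.21, SE), Rpl35 (0.19 ± 0.175, SE) and Rps10. Rps19, the gene most often mutated in that anemia, read 14.07 and 13.91 in null arrays, against 14.01, 14.10 and 14.11 in WT arrays, a difference of -0.08 ± 0.06 (SE).

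Of the genes with known phenotypes in mouse mutants, Rpl38, which is needed for translation of certain Hox mRNAs, read 13.99 and 13.68 in null arrays, against 13.46, 13.69 and 13.65 in WT arrays. The first null and the first WT array again lay apart from the others, which read 13.65 to 13.69. Rps20, mutated in a mouse with dark skin, read 14.97 and 14.95 in null arrays, against 14.91, 15.0 and 14.94 in WT arrays, a difference of 0.01 ± 0.03 (SE). Rpl22, needed for the development of T cells, read 14.51 and 14.63 in null arrays, against 14.28, 14.43 and 14.58 in WT arrays, with overlap.

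Rps19bp1, the binding partner of Rps19, had the lowest difference of the 50 genes. It read 8.10 and 8.19 in null arrays, against 8.79, 8.34 and 8.55 in WT arrays, and the groups were separate at -0.42 ± 0.15 (SE, limma adjusted p = 0.925). Rpl19 and Rpl12, chosen after their values were seen, had differences of 0.35 ± 0.20 and -0.27 ± 0.30 (SE), with overlap. The genotypes overlapped in all 19 members not yet described, with differences from -0.08 for Rps18 to 0.31 for Rpl37a, 14 of them positive. Rps16 read 2.13 to 2.16 in the 5 arrays, near the floor, so its probe set gives no information on a change. Of the 44 members with a mean of at least 5, the 95% interval of the difference on the probe set read lay within the 1.5-fold limit in both directions in 25 and went past it in 19. Other probe sets of a gene could have wider intervals.

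The probe sets of a gene did not always run together. Of 20 members with at least 2 probe sets at a mean of at least 5, 11 had differences of 1 sign and 9 of both signs, and the median range within a gene was 0.244, larger than the median difference itself. Of the 106 member probe sets, 1 was called higher (Rps27l, above) and 1 lower, against 1.13% and 1.25% of all probe sets. The one called lower read Rpl22, at 8.68 and 8.99 in null arrays, against 10.18, 9.45 and 9.66 in WT arrays. Its difference of -0.93 ± 0.27 (SE, limma adjusted p = 0.767) opposed those of the other Rpl22 probe sets, at 0.14 and 0.25. The call held in 2 of the 5 fits that left out an array and was lost without either null array or the third WT array. In Rps24, the 5 probe sets with a mean of at least 5 had differences of 0.295 to 0.405. In Rpl35 and Rps10, 5 of 6 probe sets had positive differences and the dimmest had -0.69 and -0.40.

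The size of the difference varied with the signal of the probe set. The 31 member probe sets with a mean of at least 14 had a median difference of 0.017, the 25 with a mean of 12 to 14 had 0.219, the 20 with a mean of 9 to 12 had 0.30, the 14 with a mean of 5 to 9 had 0.101 and the 16 below 5 had 0.001. Among core genes read by a probe set with a mean of 5 to 12, all 8 had positive differences. Their median was 0.431, against 0.012 for the 20 with a mean of at least 14. This depended on the cut at 5, as Rpl12, with a mean of 4.99, had a difference of -0.27. Of all 11 core genes with a mean below 12, 9 had positive differences, with a median of 0.21. An alternative chosen after seeing the data read genes by their brightest probe set below 14. Only 40 genes had such a probe set, and their median difference was 0.172. The loss of the other genes and the change of probe set both enter this value. In 16 of the 50 genes the probe set read was of a kind that can hybridise to related transcripts, and such genes have many processed pseudogenes.

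**Figure D4:**
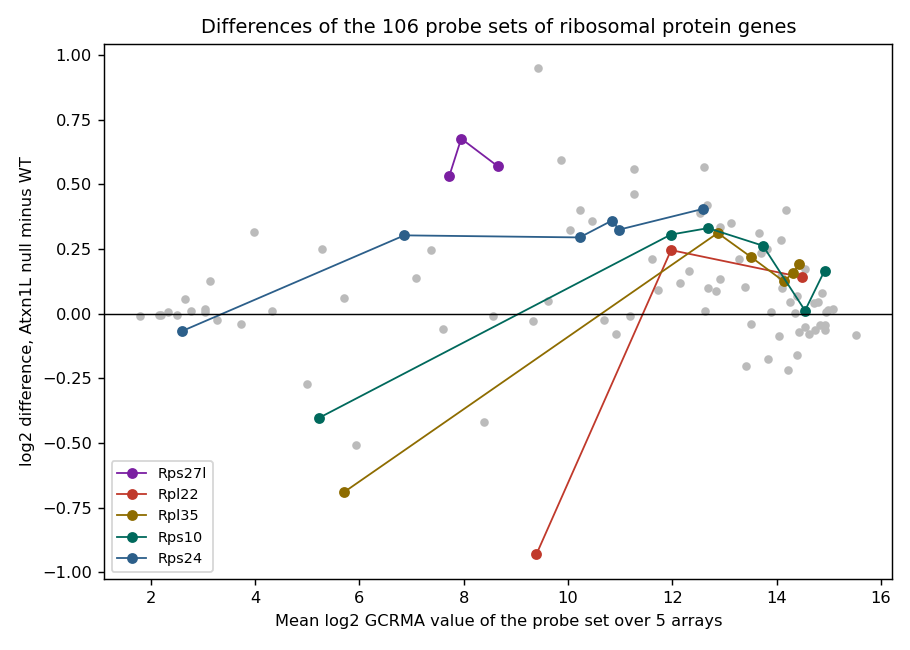
Log2 difference, Atxn1L null minus WT (vertical axis), of the 106 member probe sets against their mean log2 GCRMA value over the 5 arrays (horizontal axis). Lines join the probe sets of 5 genes, from the dimmest to the brightest, and the lowest point is the Rpl22 probe set at -0.93.

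Genes with the pyrimidine run at an annotated start had a median difference of 0.214 (n = 8, from -0.08 to 0.59), and the 36 without it had 0.039 (from -0.42 to 0.95). The ranges overlapped. Of the genes outside the rule that encode ribosomal proteins or ribosome-bound factors, Fau, which encodes a fusion of a ubiquitin-like protein and Rps30, was the one measured of 4 symbols listed. It read 12.64 and 12.17 in null arrays, against 11.63, 12.17 and 12.21 in WT arrays, so that the first null and the first WT array again stood apart. 

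Calls among the other genes of the pathway were few, and their direction differed between lists. Over all genes, 1.57% were called higher and 1.43% lower. Of 16 measured translation genes with a pyrimidine tract that encode no ribosomal protein, 0 were called higher and 1 lower, with a median difference of 0.074. The one was Eef2, which moves the ribosome along the mRNA and had 2 probe sets, of which only the brighter is given. It read 10.91 and 10.53 in null arrays, against 11.41, 11.43 and 11.35 in WT arrays, and fell by 0.67 ± 0.13 (SE, limma adjusted p = 0.517). The call was lost without the second null array, at -0.49. Of 45 measured factors of ribosome assembly, 3 were called higher (6.67%) and 2 lower (4.44%), with a median difference of 0.029. These shares lie above those over all genes and were not tested. Riok2, a kinase of late small subunit maturation, read 7.53 and 7.32 in null arrays, against 6.06, 6.57 and 6.17 in WT arrays. It rose by 1.16 ± 0.19 (SE, limma adjusted p = 0.458), or 2.23-fold. Wdr75, which acts early on the pre-ribosomal RNA, read 4.80 in null and 3.92 in WT HSCs on average, both below 5. Bysl, a factor of small subunit assembly, read 8.26 in null and 7.66 in WT HSCs. Pes1, a factor of large subunit assembly, read 6.40 in null and 7.22 in WT HSCs, and Eif6, which keeps the subunits apart, 10.70 in null and 11.33 in WT HSCs. Riok2 had 4 probe sets and Wdr75, Bysl, Pes1 and Eif6 had 2 each, and only the one with the highest mean is given. The calls of Riok2, Wdr75 and Pes1 held in all 5 fits that left out an array, and those of Bysl and Eif6 in 1 of 5, without the second null array for Bysl and without the second WT array for Eif6.

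Of 15 genes of RNA polymerase I and its factors, 0 were called higher and 1 lower. This was Ttf1, which ends transcription of ribosomal DNA, at 3.39 and 4.39 in null arrays, against 5.21, 5.32 and 5.88 in WT arrays. Ttf1 had 3 probe sets, of which only the one with the highest mean is given. Its averages were low, at 3.89 in null and 5.47 in WT HSCs. It fell by 1.58 ± 0.41 (SE, limma adjusted p = 0.681), and its call held in 1 of 5 such fits, without the second null array. Of 14 measured genes that control the synthesis of ribosomal proteins, 0 were called and the median difference was 0.072, with 7 positive and 7 negative. The transcription factor Yy1 read 11.92 and 11.77 in null arrays, against 11.42, 11.58 and 11.03 in WT arrays, and the mTOR activator Rheb overlapped, at 12.07 in null and 11.88 in WT HSCs on average. Mtor, chosen after its values were seen, read 6.06 and 6.01 in null arrays, against 5.83, 5.78 and 5.82 in WT arrays. The difference of 0.22 ± 0.03 (SE, limma adjusted p = 0.344) was a fold of 1.17. Eif4ebp2, also chosen after its values were seen, differed more, at 0.42 ± 0.12 (SE, limma adjusted p = 0.774), without overlap. Mycn and Larp1 ran the other way, at -0.17 and -0.13, with overlap. Yy1 had 4 probe sets, Mtor 3 and Eif4ebp2 5, and only the one with the highest mean is given. Myc read 2.51 in null and 2.52 in WT HSCs, near the floor of the scale. Among the 76 measured genes of mitochondrial ribosomal proteins, 3 were called higher (3.95%, against 1.57% of all genes, not tested) and 0 lower, with a median difference of 0.060. Mrps22 read 5.15 and 5.19 in null arrays, against 4.48, 4.49 and 4.49 in WT arrays, and rose by 0.68 ± 0.02 (SE, limma adjusted p = 0.0931). Mrps9 rose by 1.05 ± 0.20 (SE, limma adjusted p = 0.518) and Mrps14 by 0.62 ± 0.19 (SE, limma adjusted p = 0.808). The calls of Mrps22 and Mrps9 held in all 5 fits that left out an array, and that of Mrps14 in 1, without the second null array.

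**Figure D5:**
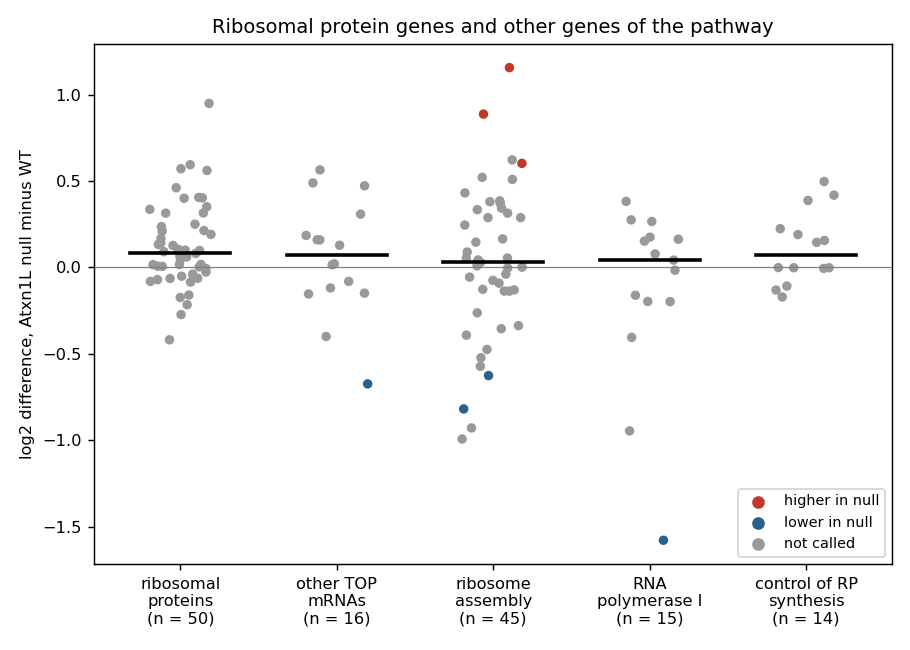
Log2 difference, Atxn1L null minus WT (vertical axis), of the 50 ribosomal protein genes and of 4 lists of other genes of the pathway, a point per gene, with bars at the medians. Called genes are coloured, 3 higher and 2 lower among 45 assembly factors, 1 lower each among 16 other genes with a pyrimidine tract and 15 genes of RNA polymerase I, and 0 among the 50 ribosomal protein genes.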

How the data were processed

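RNA of sorted HSCs from 2 Atxn1L null and 3 WT pools was amplified with T7 polymerase and hybridised to MOE430.2 arrays. The authors processed the intensities with GCRMA, for which no version is stated. The deposited values are read as log2, a base taken from their range. After 64 control probe sets were left out, 45037 were fitted with limma 3.58.1 in R 4.3.3 (lmFit and eBayes defaults, null minus WT, 0.771 prior and 3 residual degrees of freedom), with Benjamini-Hochberg adjustment over all of them. The platform annotation gave 34945 probe sets 1 gene, 932 several and 9160 none. The probe set of highest mean over the 5 arrays stood for its gene. The number of arrays limits the precision. Columns of other samples were 0. Starts came from RefSeq.

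The members and lists were chosen with earlier results of these data known. Genes named were the members with a call or no overlap between genotypes, those of the stalk, paralog, Mdm2 and mouse mutant lists, the 4 largest differences among the anemia genes, and the called or else the 2 brightest genes of the other lists. Normalization, variance model, weights, filters, choice of probe set, call criterion, replicate block and each array in turn were varied. The fit was tested on simulated data.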

Additional observations from a re-analysis of the deposited data

How the results depend on the processing

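The count of members called higher, 0, became 1 with renewed quantile normalization, without cross-hybridizing probe sets, with the average of the probe sets or with the second brightest probe set (Rps27l each time), and 1 without dim probe sets (Rps25). It became 3 with a p of at most 0.05 and no minimum fold, where the count called lower became 1 (Rpl8). Leaving out each array in turn gave 0 to 2 called higher and 0 called lower. The median difference, 0.086, ran from 0.007 to 0.183 when arrays were left out in turn. It was -0.016 without both first arrays and 0.172 over the 40 genes with a probe set with a mean below 14, both alternatives chosen after seeing the data. The 10 members without overlap became 16 with renewed quantile normalization, 4 with the second brightest probe set (of 24 genes) and 29 without both first arrays, and 12 to 39 when an array was left out, where fewer arrays make separate groups more frequent by construction: 20 without the first null, 39 without the second null and 23 without the second WT array. The causes of the other changes were not tested. With the replicate block the counts stayed at 0 and 0 and the median at 0.086. The third WT array had no null array of its number, so it did not enter the differences of this fit. They equal those without that array, as with 0.482 for Rpl14 in both. The block also left fewer degrees of freedom, so its p-values do not compare directly with the others. The limma p of the members at or under 0.05 without the block rose to 0.153 for Rpl14, 0.156 for Rps27l and 0.195 for Rplp2. That of Rpl8 was 0.0225. The deviations of same-numbered arrays from their group means had correlations of -0.033 and -0.257. With 2 null arrays, the null deviations mirror each other by construction, so these correlations cannot decide whether the arrays were paired. Outside the fit with the replicate block, the numbers were not used as pairs. Of 491 values of 27 named genes under the alternatives, 429 kept their direction and their side of the threshold or moved by less than the spread, 12 newly passed and 50 moved further, some of them past 0, among them 14 without both first arrays. Where only the call criterion, the variance model or the filter on dim probe sets was varied, the difference could not change. Nor could it for genes with 1 probe set under the average of the probe sets. The count of 429 is therefore no measure of stability. Other settings for these counts and the median (median centring, variance trend, array weights, an adjusted p under 0.05, and probe sets shared with pseudogenes, added after seeing the data) left the calls at 0, with medians of 0.025 to 0.086 and 10 to 14 members without overlap. Values near 3 or below lie near the floor and carry little information on change.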

Other observations

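Another 24 ribosomal protein genes were read only by probe sets that the annotation also gives to pseudogenes or predicted genes. When these 98 probe sets were added, 74 genes were measured, 33 of them by a shared probe set, 0 were called in either direction and the median difference, null minus WT, was 0.063. In this reading the difference of Rps25 was 0.345, against 0.949 on its own probe set, and that of Rpl14 was 0.274, against 0.461. That of Rps6 was 0.077, against 0.594, and that of Rpl27a was 0.073, against 0.402.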
